A study of Arabidopsis thaliana with 24 samples.

Results

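The chloroplast, like every plastid, keeps a small genome of its own, and transcripts of 69 genes of the Arabidopsis thaliana plastid genome were followed in roots and shoots during 24 h of salt stress. The genes were taken as those whose locus tag in the reference annotation begins with ArthCp and to which a probe set maps as its only gene. Of the 84 such locus tags, 69 had a probe set of this kind, each exactly 1, out of 13286 genes with a single-gene probe set on the array. By product, 5 encode photosystem I subunits, 15 photosystem II subunits or proteins named with them, 6 subunits of the cytochrome b6f complex, 6 subunits of ATP synthase, 10 subunits of the NADH dehydrogenase-like complex (NDH), 1 the Rubisco large subunit, 7 and 8 proteins of the large and small plastid ribosomal subunits, 4 subunits of the plastid-encoded RNA polymerase and 7 other proteins. Another 8 probe sets map to plastid genes of the inverted repeat, which lie in the genome as a pair of copies, and are described apart.

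The plastid genome encodes part of the photosynthetic apparatus and part of the machinery that expresses it. Photosystem II splits water and passes electrons through the cytochrome b6f complex to photosystem I, ATP synthase uses the proton gradient that results, NDH feeds electrons back from photosystem I, and Rubisco fixes carbon dioxide. All these complexes also contain subunits encoded in the nucleus. Plastid genes are transcribed as long polycistronic RNAs by a plastid-encoded polymerase, whose core subunits are rpoA, rpoB, rpoC1 and rpoC2, and by a nuclear-encoded phage-type polymerase. Photosystem genes depend mainly on the plastid-encoded enzyme, while rpoB, accD and some ribosomal protein genes can be read from promoters of the nuclear-encoded enzyme. Roots hold non-green plastids in place of chloroplasts.

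The plants were of the Col-0 accession and were grown on Murashige and Skoog medium with 16 h of light per day. On day 16, after 3 h of light, sodium chloride was added to the medium to 150 mM, and roots and shoots were taken 0.5, 1, 3, 6, 12 and 24 h later. Each of the 12 groups, 6 times in roots and 6 in shoots, holds 2 arrays, and all groups had received salt. Untreated plants were not analysed here, so 0.5 h in the same tissue served as the point of comparison for every later time, and hours of salt cannot be told apart from time of day, except that 24 h and 0.5 h fall at nearly the same hour.

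The labels do not tell whether both arrays of a group stem from different cultures of plants, and the p-values therefore cover the spread between these arrays alone, which may be technical. Signals are deposited intensities on a linear scale, and differences are log2 values ± SE from a limma fit on log2(signal + 2.205), a scale on which changes of dim genes come out too small. A gene was called changed when its adjusted p, over 15199 probe sets, was under 0.05 and the difference was at least 2-fold. Levels of different genes are not compared, since each probe set has its own affinity.

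Array medians ran from 42.0 to 47.2 in roots and from 37.2 to 42.1 in shoots. Nuclear photosynthesis genes marked the tissues: phosphoribulokinase (PRK) lay between 12.1 and 50.0 on root arrays and between 2641 and 5140 on shoot arrays, and Rubisco activase (RCA) between 47.1 and 342 on root arrays and between 3267 and 6352 on shoot arrays. These were the 2 of 7 listed shoot markers with a single-gene probe set here. PYK10, a root beta-glucosidase, lay between 2841 and 4295 on root arrays and between 205 and 1034 on shoot arrays. With EXPA7, a root hair expansin that was 1.43 higher in roots on the log2 scale, these were 2 of 4 listed root markers. EXPA7 was dim, at 9.84 to 92.2 on root arrays and 2.57 to 18.5 on shoot arrays, and passed the filter on low signals through roots alone.

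The 2 shoot arrays of 12 h stood apart on organelle genes. Of the 69 plastid genes, 44 (63.8%) differed at least 2-fold between them, against 5.81% of all probe sets on these arrays and at most 2 plastid genes in any other group. The signal was higher on replicate 2 for 68 of 69 genes, by a median of 1.31 on the log2 scale, while the median over all probe sets was -0.01. The 6 tested genes of the mitochondrial genome were also all higher on replicate 2, by a median of 1.27. The log2 differences ranged from -0.16 for psaB to 2.97 for rbcL. By class, the medians were 0.38 for photosystem I, 0.71 for photosystem II, 1.20 and 1.36 for the large and small ribosomal subunits, 1.36 for NDH, 1.41 for the other proteins, 1.45 for the RNA polymerase, 1.52 for ATP synthase and 1.61 for cytochrome b6f. For psbD, the D2 protein of photosystem II, the arrays read 419 and 3172, and for atpA, the alpha subunit of ATP synthase, 358 and 2639. The calls and medians at 12 h that use these arrays are given with and without them. The 2 root arrays of 12 h correlated across all probe sets at r = 0.857, against 0.977 to 0.984 in the groups of other times. Between them 19.1% of all probe sets differed at least 2-fold, against 1.21% to 3.25% in the groups of other times. Of the plastid genes, 1 differed at least 2-fold between these root arrays.

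Roots held less of every plastid transcript measured. Averaged over the 6 times, all 69 genes were called lower in roots than in shoots, against 18.4% of all probe sets tested. The median difference was -3.02 on the log2 scale, and it was 0.18 over all probe sets. Root and shoot arrays did not overlap for 66 of the 69 genes, the exceptions being rpl16, accD and petN. The share of all probe sets without overlap was not counted, so this count has no background beside it. In these bulk samples, fewer plastids or green cells and less RNA per cell cannot be told apart. All 69 genes passed the filter on low signals, which could be met by shoots alone, and 47 of them also stood at or above the series median of 41.7 on all 12 root arrays.

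Photosystem II and NDH genes had the lowest class medians, -3.50 and -3.48, with all 15 and all 10 genes called lower. psbA encodes the D1 protein of the photosystem II reaction centre, which light damages and the plastid keeps replacing. Its lowest, median and highest signals were 33.2, 67.0 and 133 on the 12 root arrays, and 2134, 2650.2 and 3448 on the 12 shoot arrays. The root signals averaged 2.50% of the shoot signals, and the difference was -5.36 ± 0.07 (adjusted p = 4.0e-19, limma). psbD had signals of 34.7, 100.3 and 188 on root arrays and 419, 2818 and 3369 on shoot arrays, a difference of -4.61 ± 0.22 (adjusted p = 2.7e-12). Neither gene had a root array above its dimmest shoot array. The NDH subunit gene ndhJ had the largest difference of the 69, -5.77 ± 0.22 (adjusted p = 9.6e-14). It read 3.81, 16.7 and 34.2 on root arrays and 368, 1063 and 1829.8 on shoot arrays. With psbN, petD, ndhF and ndhH it was 1 of 5 genes below the series median on all 12 root arrays, so their root level rests on dim signals. These 5 passed the filter through shoots alone.

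Among the other photosynthesis genes, the median difference was -3.35 over the 5 photosystem I genes, -3.11 over the 6 ATP synthase genes and -2.58 over the 6 cytochrome b6f genes, all called lower. Within photosystem I, psaA and psaB, which encode the paired reaction centre proteins from 1 transcript, differed by -3.90 ± 0.09 and -2.13 ± 0.07. psaC, the iron-sulfur subunit, differed by -3.49 ± 0.10. Within ATP synthase, the values ran from -4.45 for atpF to -2.46 ± 0.07 for atpB, the catalytic beta subunit. For petB, cytochrome b6, the difference was -2.37 ± 0.06. For rbcL, the Rubisco large subunit, it was -2.999 ± 0.25 (adjusted p = 5.0e-09), with signals of 26.9, 50.3 and 120.1 on root arrays and 131, 423 and 1035 on shoot arrays.

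By class median, genes of the expression machinery were lower in roots by less, though the polymerase median lay close to that of cytochrome b6f. Single genes of the machinery and of photosynthesis overlapped. The median was -2.37 over 7 large-subunit and -2.39 over 8 small-subunit ribosomal protein genes and -2.56 over 4 polymerase genes. These class medians are given side by side without a test between classes. The smallest difference of the 69 was that of rpoA, the alpha subunit of the plastid polymerase, at -1.40 ± 0.08 (adjusted p = 2.5e-11). Its signals were 468, 617 and 789 on root arrays and 988, 1623 and 2177 on shoot arrays, so that roots averaged 37.4% of shoots. rps14, a small-subunit protein gene, followed at -1.42 ± 0.13 with 35.3%, and petN, a small cytochrome b6f subunit, at -1.76 ± 0.17 with 27.2%. The other polymerase genes, rpoB, rpoC1 and rpoC2, differed by -2.50, -2.62 and -2.72, and rps18 by -2.92. Of the other proteins, clpP, the catalytic subunit of the plastid Clp protease, differed by -2.31, accD, a subunit of acetyl-CoA carboxylase in fatty acid synthesis, by -2.27, and matK, the intron maturase, by -2.99.

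**Figure D1:**
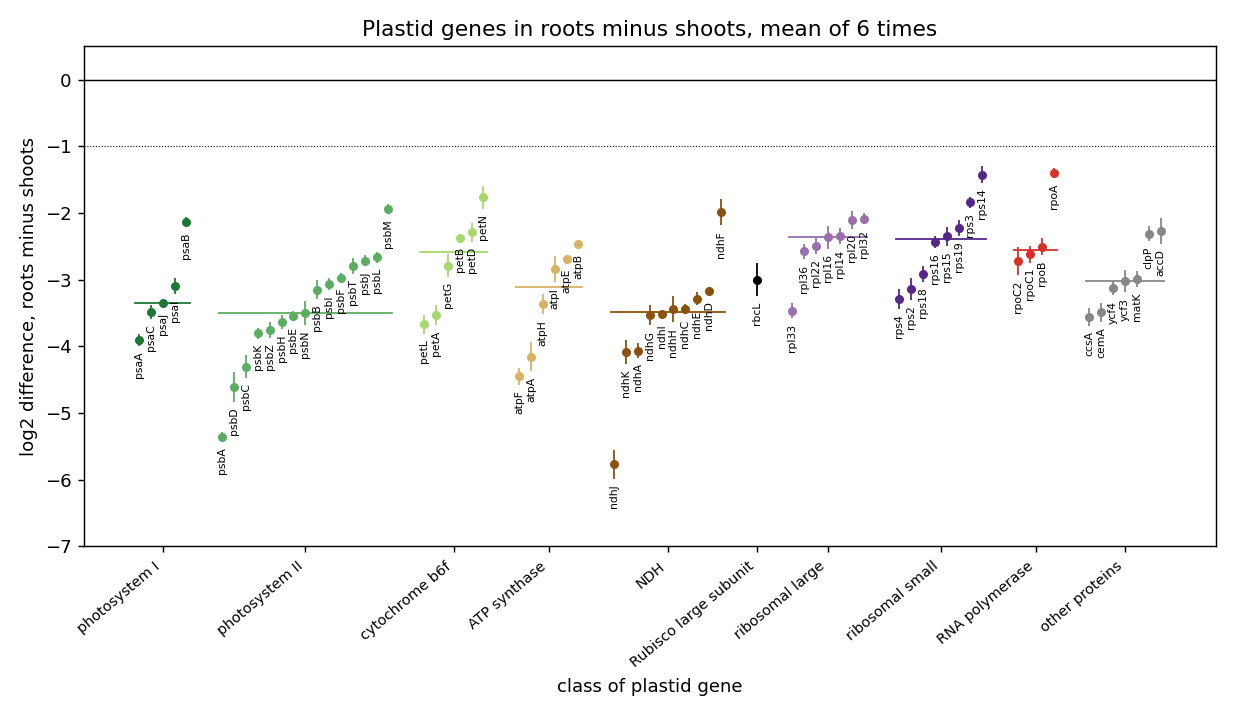
Log2 difference of roots minus shoots averaged over 6 times (y axis) for each of the 69 plastid genes, grouped by class (x axis). Points are limma estimates with SE as bars, coloured lines are class medians, and the dotted line marks 2-fold; every gene lies below it, from -5.77 for ndhJ to -1.40 for rpoA.

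The gap between roots and shoots was present at each time and widest at 3 h. At 0.5, 1 and 3 h all 69 genes were called lower in roots (17.5%, 18.3% and 20.7% of all probe sets), with medians of -3.27, -2.9996 and -3.70. At 6 h 66 genes were called (22.9%), with a median of -3.20, and at 12 h 67 genes (19.2%), with a median of -2.35. At 24 h all 69 were called (18.8%), with a median of -2.66. The genes not called at 6 h were petN (-0.29), rps14 (-0.69) and ndhF (-1.12, adjusted p = 0.054), and those at 12 h were rpoA (-0.73) and rpl16 (-0.95). At 12 h, without shoot replicate 1 of that time, 68 genes were called (19.3%), all but rpoA, with a median of -3.04. Without replicate 2, 59 were called (19.2%), with a median of -1.64, and rbcL (-0.57) was among the 10 not called. The photosystem II median was -3.58, -3.56, -4.47, -3.73, -2.69 and -2.86 over the 6 times in order, and the RNA polymerase median was -2.97, -2.66, -3.23, -2.21, -1.97 and -1.91. Both classes had their widest gap at 3 h. At 12 h these medians were -3.07 and -2.89 without shoot replicate 1 of that time, and -2.03 and -0.998 without replicate 2.

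In roots, plastid transcripts were low at 3 and 6 h, and by 12 and 24 h their median difference from 0.5 h was above 0. At 1 h limma called 0 of 69 genes (0.388% of all probe sets), with 4 at an unadjusted p under 0.05. That limit was met by 1354 of all 15199 probe sets, a larger share than of the plastid genes. At 3 h 14 genes fell (4.86% of all probe sets were called lower), and all 69 differences were below 0, with a median of -0.81 against -0.19 over all probe sets. At 6 h 11 genes fell (13.2%, a share close to that of the plastid genes), and the median was -0.58 against -0.21. The lowest mean of the 6 times was that of 3 h for 48 genes, of 6 h for 16 and of 1 h for 5.

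The root decrease at 3 h took in 5 of 15 photosystem II genes (psbC, psbD, psbH, psbK and psbZ), 3 of 10 NDH genes (ndhA, ndhG and ndhI), 1 of 6 ATP synthase genes (atpH), 1 of 8 small-subunit ribosomal genes (rps16), 1 of 4 polymerase genes (rpoC1) and 3 of 7 other proteins (ycf3, ycf4 and cemA). No gene of photosystem I, cytochrome b6f or the large ribosomal subunit passed, with class medians of -0.71, -0.76 and -0.74, nor did rbcL (-0.85).

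psbZ, a small photosystem II subunit, had root signals of 93.6 and 83.3 at 3 h, then 80.5 and 83.8 at 6 h, compared with 273 and 266 at 0.5 h. Its differences were -1.58 ± 0.31 at 3 h (adjusted p = 0.0014) and -1.69 ± 0.31 at 6 h (adjusted p = 3.5e-04). psbC, the chlorophyll-binding protein CP43, read 71.8 and 63.1 at 3 h, then 58.9 and 66.9 at 6 h, compared with 190.3 and 209 at 0.5 h, with differences of -1.54 and -1.63. For both genes each array of 3 and 6 h lay well under both arrays of 0.5 h. psbD, which is cotranscribed with them, read 34.7 and 39.8 at 3 h against 103 and 115 at 0.5 h (-1.50 ± 0.54, adjusted p = 0.042). psbA stayed under the 2-fold limit at 3 h (-0.92 ± 0.18, adjusted p = 0.0016), with 35.6 and 33.2 at 3 h against 67.4 and 67.0 at 0.5 h.

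ndhA, an NDH membrane subunit, had 65.2 and 41.6 at 3 h, then 43.8 and 65.5 at 6 h, compared with 147 and 126 at 0.5 h, and fell by 1.34 ± 0.27 at 3 h and by 1.31 ± 0.27 at 6 h on the log2 scale. atpH, the membrane ring subunit of ATP synthase, read 61.8 and 102 at 3 h against 241 and 168 at 0.5 h (-1.31 ± 0.37, adjusted p = 0.012), and at 6 h its arrays of 207 and 169 overlapped those of 0.5 h. rpoC1 read 88.5 and 90.8 at 3 h, then 78.2 and 99.3 at 6 h, compared with 232 and 166 at 0.5 h, with differences of -1.11 and -1.13. rps16 read 14.8 and 15.1 at 3 h against 38.6 and 33.5 at 0.5 h (-1.15 ± 0.22, adjusted p = 0.0012).

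At 6 h the genes called lower in roots were psbC, psbK and psbZ of photosystem II, ndhA and ndhI, the ribosomal protein genes rpl22 (-1.04), rpl36 (-1.14) and rps2 (-1.16), rpoC1, and ycf3 and ycf4, which are both assembly factors of photosystem I. rpoA stood apart, with 621 and 613 at 3 h, then 590.2 and 705 at 6 h, compared with 673 and 643 at 0.5 h, and differences of -0.09 and -0.03 that were not called. Its 6 root means correlated with the median profile of the 4 polymerase genes at r = -0.30, against 0.76 for rpoB and 0.99 for rpoC1 and rpoC2, over 6 times of 2 arrays.

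At 12 h limma called 0 plastid genes in roots (13.5% of all probe sets), and the median was 0.25. At an unadjusted p under 0.05 there were 13 plastid genes, against 6547 of all 15199 probe sets, a larger share. Without root replicate 1 of 12 h, 1 gene was called higher. At 24 h 1 gene was called higher (8.02% of all probe sets), and the median was 0.46, with 60 of 69 differences above 0. This was psaA, with 609.6 and 532 at 24 h against 248 and 322 at 0.5 h (1.003 ± 0.23, adjusted p = 0.0032), just past the 2-fold limit. Without root replicate 1 of 0.5 h or of 24 h it was not called, at 0.82 and 0.90. The highest mean of the 6 root times was that of 24 h for 40 genes and of 12 h for 19.

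The count of 14 genes at 3 h was 7 when root replicate 1 of 0.5 h was left out, 9 when replicate 2 of 0.5 h was and 7 when replicate 2 of 3 h was, and it was 9 with arrays centred on their medians. Single calls were followed only for the most changed called gene of each class at each time, so the losses named here are not all of them. At 3 h atpH was not called without replicate 1 of 0.5 h or of 3 h, and rpoC1 not without replicate 1 of 0.5 h or either array of 3 h. The count of 11 at 6 h was 6 without root replicate 1 of 0.5 h, 4 without replicate 1 of 6 h and 7 with centred arrays, and against 1 h it was 16 lower and 2 higher. At 6 h ycf3 was not called without any 1 of the 4 arrays compared, rps2 not without either array of 0.5 h or replicate 1 of 6 h, rpoC1 not without replicate 1 of 0.5 h or of 6 h, and rpl36 not without replicate 1 of 6 h.

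Other genes moved at the same times in roots. The 6 tested mitochondrial genes had medians of -0.84 at 3 h and -0.86 at 6 h, with nad5, a subunit of respiratory complex I, called lower at 6 h (-1.22). RCA read 71.3 and 85.3 at 3 h, 47.1 and 64.3 at 6 h, then 342 and 258 at 24 h, compared with 117 and 145 at 0.5 h, and was called lower at 6 h (-1.21) and higher at 24 h (1.18). PRK read 15.2 and 17.1 at 3 h, 12.1 and 28.6 at 6 h, then 50.0 and 45.2 at 24 h, compared with 19.2 and 37.7 at 0.5 h, and was not called. The part of shoot tissue or green cells on the root arrays in the plastid result was not tested. The other 5 shoot markers listed have no single-gene probe set here.

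**Figure D2:**
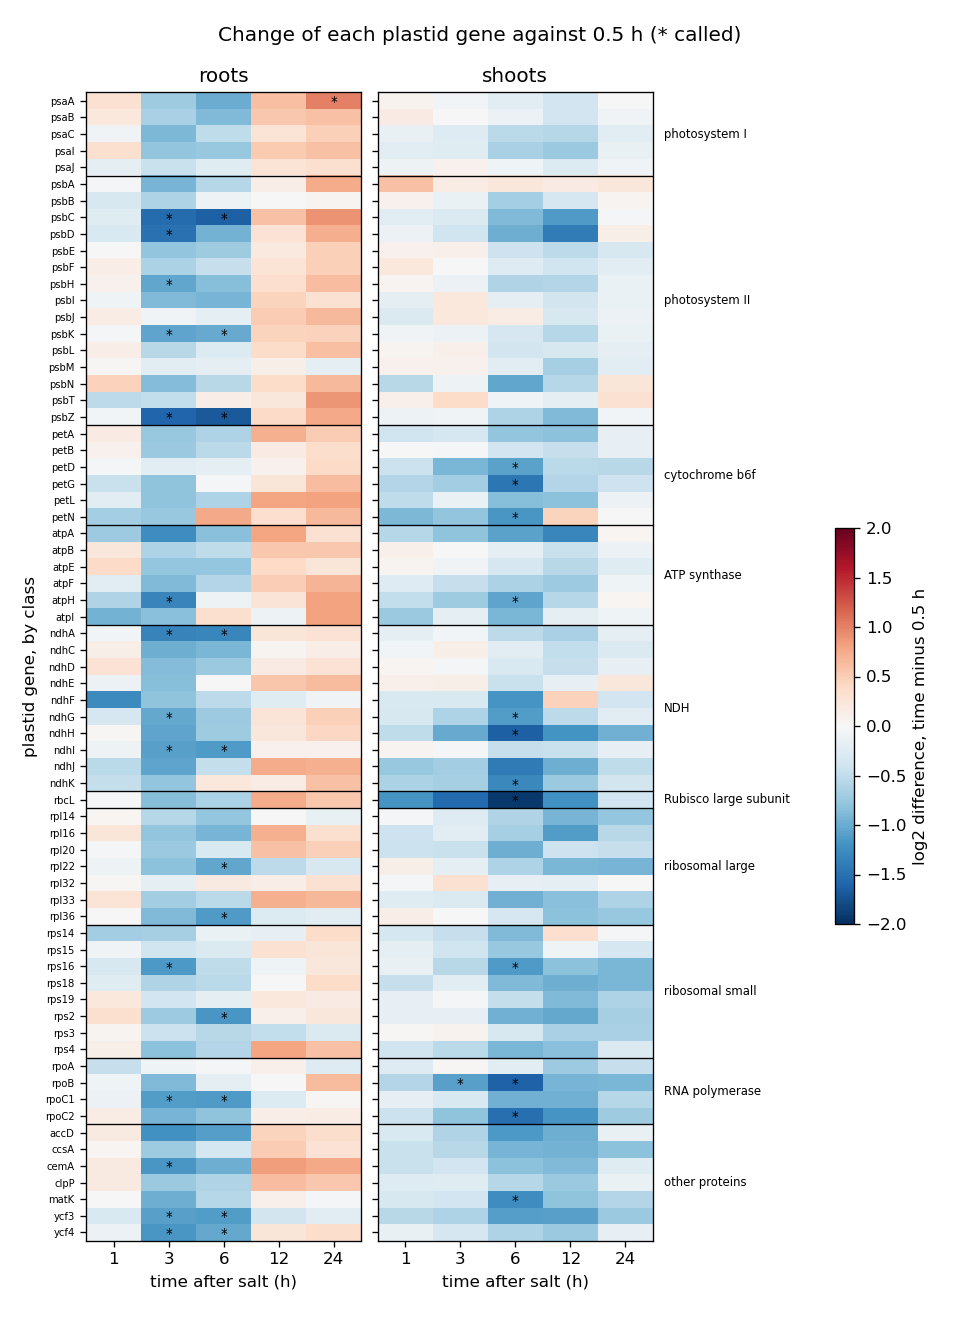
Log2 difference from 0.5 h (colour, blue lower and red higher) for the 69 plastid genes, in rows by class, at 1, 3, 6, 12 and 24 h (x axis) in roots and in shoots, with an asterisk where the change was called. Calls in roots lie at 3 h (14), 6 h (11) and 24 h (1), and calls in shoots at 3 h (1) and 6 h (12).

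In shoots, plastid transcripts were low at 6 h, with most differences below 0 in every class. At 1 h limma called 0 of 69 genes (2.21% of all probe sets), with 2 at an unadjusted p under 0.05. That limit was met by 2187 of all 15199 probe sets, a larger share than of the plastid genes. At 3 h 1 gene fell, rpoB (5.08% of all probe sets were called lower). At 6 h 12 genes fell (5.73%), and the median was -0.67 against 0.05 over all probe sets. All 12 were among the 49 genes outside the photosystems, whose median was -0.89, while 0 of 5 photosystem I genes (median -0.21) and 0 of 15 photosystem II genes (median -0.36) passed. Both photosystem II class medians on the arrays of 6 h, -0.29 and -0.15, still lay below those of 0.5 h, 0.17 and 0.21, on the log2 scale relative to the shoot mean. The difference between classes was not tested.

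The polymerase genes had the lowest class median at 6 h, -1.23, after that of the lone rbcL. rpoB, the beta subunit, read 135 and 146 at 3 h, then 87.2 and 107 at 6 h, compared with 298 and 301 at 0.5 h. It fell by 1.08 ± 0.32 at 3 h (adjusted p = 0.021) and by 1.61 ± 0.32 at 6 h (adjusted p = 0.0011), and no array of either time reached those of 0.5 h. rpoC2 read 243 and 464 at 6 h against 917 and 995 at 0.5 h (-1.50 ± 0.51, adjusted p = 0.034). rpoC1 (-0.97, adjusted p = 0.024) stayed under the 2-fold limit, and rpoA was not called (-0.23).

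rbcL had the largest change in shoots, with 204 and 239.9 at 6 h against 846 and 861 at 0.5 h (-1.94 ± 0.61, adjusted p = 0.023). Its arrays already read 353 and 401 at 1 h and 189 and 445 at 3 h, where the differences of -1.18 and -1.55 were not called. At 12 h they read 131 and 1035, on both sides of every other shoot array, and at 24 h 680.3 and 626.

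In NDH, ndhG, ndhH and ndhK fell at 6 h, with ndhH at 123 and 178 against 431 and 495 at 0.5 h (-1.63 ± 0.48, adjusted p = 0.017). In cytochrome b6f, petD, petG and petN fell, with petG, a small subunit, at 141 and 148 against 383 and 415 at 0.5 h (-1.45 ± 0.41, adjusted p = 0.012). The larger petA and petB were not called, at -0.79 and -0.38. In ATP synthase, atpH fell (-1.06), and in the ribosome, rps16 fell (-1.13), with 106 and 119 at 6 h against 245 and 251 at 0.5 h. matK, which helps splice plastid introns, read 839 and 955 at 6 h against 2181 and 2051 at 0.5 h (-1.24 ± 0.29, adjusted p = 0.0042). No large-subunit ribosomal gene passed, with a class median of -0.62.

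The photosystem genes differed among themselves. psbN read 142 and 159 at 6 h against 301 and 318 at 0.5 h (-1.03, adjusted p = 0.088), psbD read 1403 and 1692 at 6 h against 3016 and 3081 at 0.5 h (-0.98, adjusted p = 0.19), and psbC differed by -0.89, none of them called. For psbN and psbD both arrays of 6 h lay below those of 0.5 h. psbA read 2392 and 2960 at 6 h against 2160.3 and 2383 at 0.5 h (0.23), and at 1 h it read 3448 and 3397 (0.59), neither called. psaA read 3683 and 4474 at 6 h against 4122 and 5314 at 0.5 h (-0.21). Both arrays of psbA at 6 h lay just above those of 0.5 h, and those of psaA overlapped. Across the 69 genes the change at 6 h correlated with the mean log2 signal on the shoot arrays of all times but 12 h at r = 0.61. That mean includes the arrays of 0.5 and 6 h, from which the change itself is formed. With the mean log2 signal on the shoot arrays of 24 h alone, r was 0.57. Both values are descriptions across genes that share arrays, and signal across genes also reflects the affinity of each probe set. The part of signal level in the class medians was not tested.

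At 12 h limma called 0 plastid genes in shoots (14.0% of all probe sets), and the median was -0.65. At an unadjusted p under 0.05 there were 44 plastid genes, against 6274 of all 15199 probe sets, a smaller share. The plastid result at 12 h rests on the 2 arrays that disagree. Without replicate 1 of that group 0 genes were called lower, 1 was called higher, petN at 1.25 (7.02% of all probe sets), and the median was -0.11. Without replicate 2, 42 genes were called lower (7.84%), and the median was -1.27. Without either root array of 12 h the count was 5 lower. At 24 h limma called 0 genes (14.4% of all probe sets), and the median was -0.21. At an unadjusted p under 0.05 there were 10 plastid genes, against 6342 of all 15199 probe sets, a larger share. Without shoot replicate 2 of 24 h, 1 gene was called lower.

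The disagreeing arrays also enter the spread that the fit assigns to each gene at every time. Without both shoot arrays of 12 h, 3 genes were called lower in shoots at 3 h (5.16%), namely rpoB, rbcL (-1.55) and ndhH (-1.01), and 18 at 6 h (5.86%), where accD, atpA, ndhF, ndhJ, ycf3 and psbN, which is grouped with photosystem II, joined. In roots at 3 h 18 genes were then called lower (4.96%), where accD, atpA, ndhH and ndhJ joined. The calls of rbcL and atpH at 6 h were lost without any 1 of the 4 shoot arrays of 0.5 and 6 h, petG lost its call without any of these but replicate 1 of 0.5 h, and ndhH without any but replicate 2 of 6 h. The call of rpoB at 3 h was lost without any 1 of the 4 shoot arrays of 0.5 and 3 h. Here too, only the most changed called gene of each class at each time was followed singly. The count of 12 at 6 h was 4 without either shoot array of 0.5 h and 3 without replicate 1 of 6 h, it was 19 with centred arrays, and it was 1 against 1 h in place of 0.5 h.

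**Figure D3:**
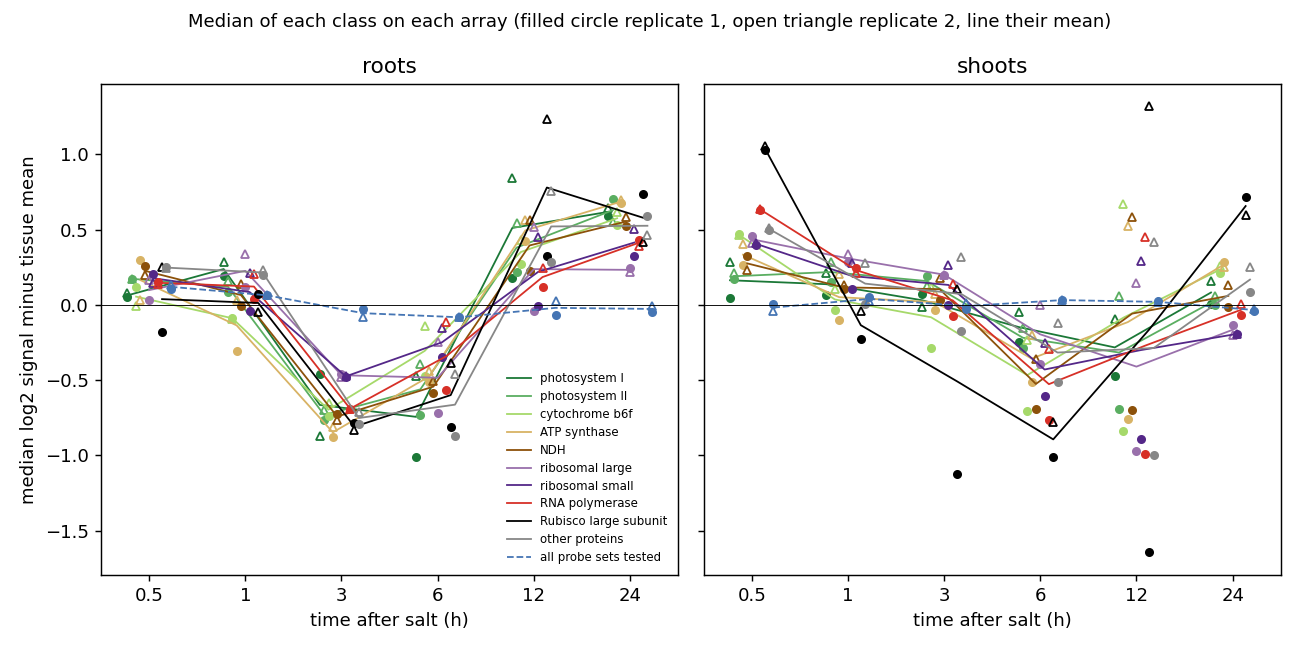
Median over the genes of each class of the log2 signal minus the gene's mean over the 12 arrays of that tissue (y axis), for each array at each time after salt (x axis), with roots left and shoots right (filled circles replicate 1, open triangles replicate 2, lines their mean, dashed for all probe sets). In roots both arrays of 3 h lie below those of 0.5 h in every class; in shoots the arrays of 12 h lie apart, at -1.64 and 1.32 for rbcL and -0.47 and -0.10 for photosystem I.

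Genes that differed more between the 12 h shoot arrays tended to have lower values at 6 h. Of the 12 genes called lower at 6 h, 11 differed at least 2-fold between the arrays of 12 h, against 44 (63.8%) of all 69 genes. Across the 69 genes the 2 measures correlated at Pearson r = -0.83 and Spearman rho = -0.85, as a description over genes of the same arrays. The difference between the 12 h arrays correlated with the mean log2 signal on the other shoot arrays at r = -0.45, a mean that also reflects the affinity of each probe set. ndhH (2.54) and rpoC2 (2.52) lay at the far end on both measures with rbcL, while psaB had -0.16 between the arrays and -0.12 at 6 h.

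**Figure D4:**
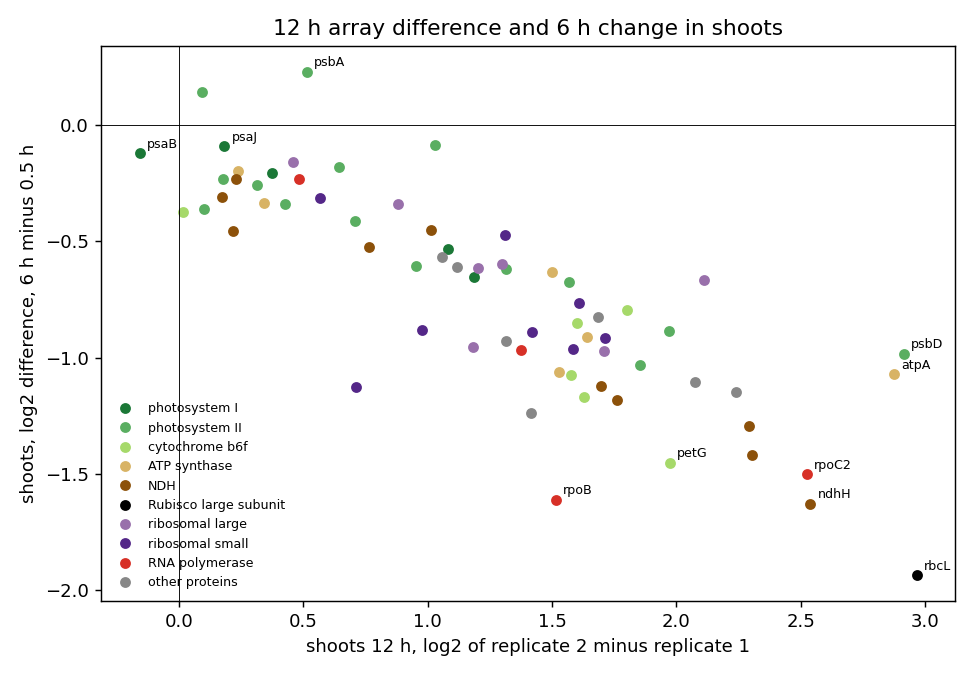
For each plastid gene, the log2 difference of replicate 2 minus replicate 1 of the 12 h shoot arrays (x axis) against the log2 difference of 6 h minus 0.5 h in shoots (y axis), coloured by class. rbcL lies farthest out at 2.97 and -1.94, psaB at -0.16 and -0.12, and psbD and atpA differ as much between the arrays as rbcL with 6 h values of -0.98 and -1.07.

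The change in roots was then tested against the change in shoots. At 3 h 6 genes had a lower change in roots (9.66% of all probe sets were called lower, no less than among the plastid genes): psbZ (-1.51), ndhA (-1.28), ndhC (-1.11), psbI (-1.09), psbA (-1.07) and ndhI (-1.05). The median was -0.57 against -0.20 over all probe sets. For psbA the root change was -0.92 and the shoot change 0.15. At 6 h 2 genes had a higher change in roots (11.4%), petN (1.92) and rpoB (1.43). Between the tissues at 6 h, rpoB changed by -0.18 in roots and by -1.61 in shoots. Without both shoot arrays of 12 h this count was 5 higher (11.5%) and 1 lower.

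At 12 h 14 genes had a higher change in roots (8.67%), but 0 without shoot replicate 1 of 12 h (6.84%) and 49 without replicate 2 (9.43%). Leaving out other arrays gave 9 and 3 without shoot replicate 1 and 2 of 0.5 h, 7 and 8 without root replicate 1 and 2 of 0.5 h, and 23 and 5 without root replicate 1 and 2 of 12 h. At 24 h 5 genes did (9.00%): rpoB (1.54), rps18 (1.28), rpl33 (1.28), rps16 (1.13) and psaA (1.01), and 8 did without both shoot arrays of 12 h (9.14%). The share of plastid genes called at 24 h was no higher than that of all probe sets. The root signals of rpoB and rps16 were dim, below the series median on 10 and 11 of 12 root arrays. rpoB read 44.7 and 47.8 in roots at 24 h against 29.2 and 28.9 at 0.5 h, and 138 and 182 in shoots at 24 h against 298 and 301 at 0.5 h. Both root arrays of 24 h lay above those of 0.5 h, and both shoot arrays below. The counts moved when 1 array was left out: 3 at 3 h without shoot replicate 2 of 0.5 h or root replicate 2 of 3 h, 1 at 6 h without shoot replicate 1 of 0.5 h, root replicate 2 of 0.5 h, shoot replicate 1 of 6 h or root replicate 2 of 6 h (there 1 lower and 0 higher), and 1 to 3 at 24 h without any 1 array of 0.5 or 24 h.

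**Figure D5:**
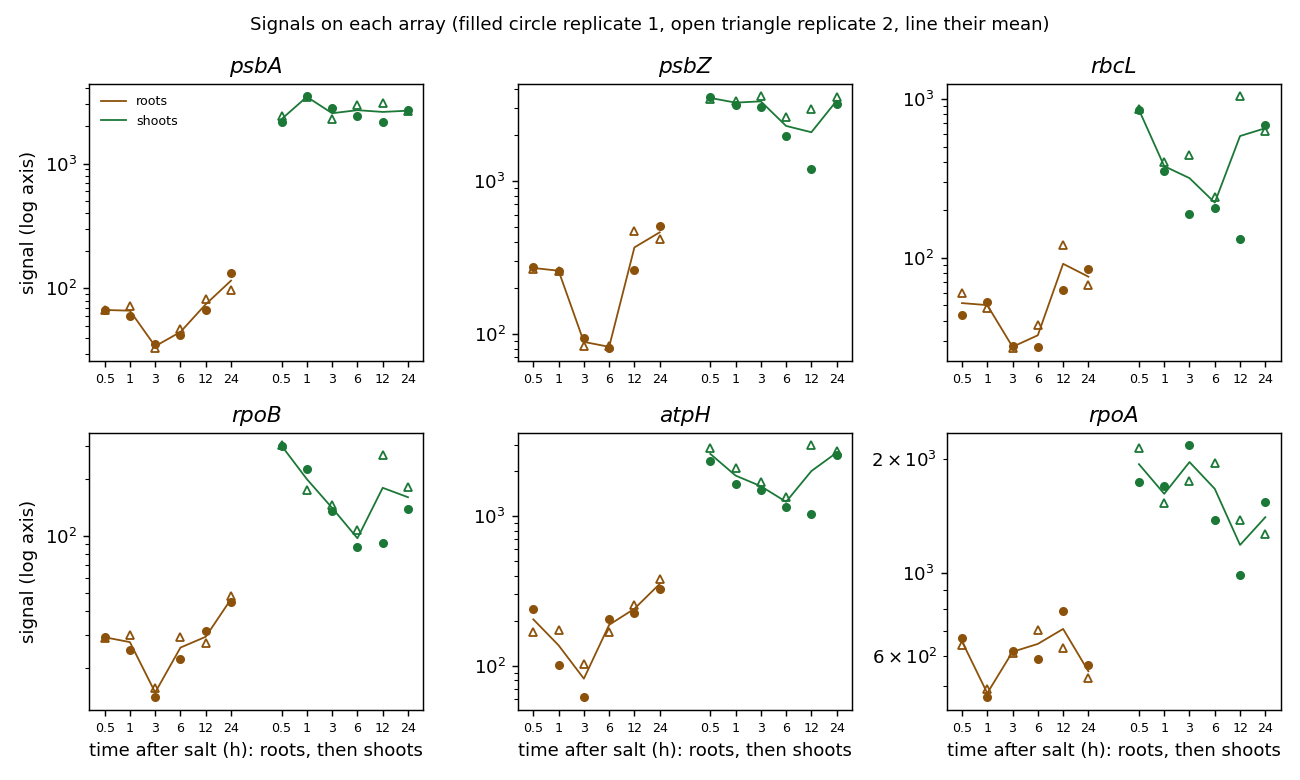
Signal on each array (y axis, log scale, a range of its own in each panel) of psbA, psbZ, rbcL, rpoB, atpH and rpoA at each time after salt (x axis), roots left and shoots right in each panel. Filled circles are replicate 1, open triangles replicate 2 and lines their mean; psbZ in roots lies at 80.5 to 93.6 at 3 and 6 h, under the 266 and 273 of 0.5 h, and rbcL in shoots reads 131 and 1035 on the arrays of 12 h.

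Genes known to be transcribed together were also compared, without a test. Of the psbD, psbC and psbZ unit, all 3 genes fell in roots at 3 h, by values from -1.58 to -1.50, and in shoots at 6 h their values ran from -0.98 to -0.62 with no call. In the rpoB, rpoC1 and rpoC2 unit the values ran from -1.11 to -0.88 in roots at 3 h and from -1.61 to -0.97 in shoots at 6 h. The 7 genes of the unit from rps19 to rpoA ran from -0.88 to -0.09 in roots at 3 h and had medians of -0.21 in roots and -0.65 in shoots at 24 h. The unit of psaA, psaB and rps14 ran from -0.71 to -0.65 in roots at 3 h and from -0.88 to -0.12 in shoots at 6 h. Likeness to the class median, of which each gene is itself a part, was described over the 6 times within a tissue, because the shared gap between roots and shoots sets it over all groups. In roots r was lowest for rpoA (-0.30), rpl22 (0.30) and rps14 (0.42), and in shoots for rps14 (-0.04), psbA (0.19) and psbJ (0.26).

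The nuclear partners of the plastid genes could be followed only in part, since 1 or 2 genes of each list have a single-gene probe set here. Of the photosystem I subunits 2 of 12 listed were measured, of photosystem II 2 of 10, of cytochrome b6f and ATP synthase 2 of 5, of NDH 2 of 8, of the small Rubisco subunits and activase 1 of 5, and of plastid ribosomal proteins 1 of 21, while none of 6 sigma factors was. Of 15 phage-type polymerases and polymerase-associated proteins listed, 1 had a probe set and none passed the filter. All 10 measured partners were called lower in roots, against 18.4% of all probe sets. The values ran from -6.61 for PSAE1 to -4.26 for PRPL3, a plastid ribosomal protein, with PSBY at -5.996, NDHL at -5.95 and ATPC1 at -5.27. On root arrays NDHL read 5.05 to 13.8 and NDHN 8.80 to 22.1, all below the series median of 41.7. These 2 genes passed the filter through shoots alone, and their root levels rest on dim signals. In roots at 3 h PSAN (-1.16), PSBW (-1.29) and ATPC1 (-1.14) fell, and at 6 h PSAE1, PSAN, PETM, ATPC1 and RCA. In shoots at 6 h none of the 10 was called, with values from -0.84 for NDHN to 0.00, and at 24 h PRPL3 (-1.23) and PSAN (-1.02) were called lower.

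The mitochondrial genome served as the other organelle on the same arrays, with 6 of its genes tested. 0 of these were called between roots and shoots over all times, with a median of 0.21 and 2 at an unadjusted p under 0.05. Of all 15199 probe sets 13004 met that limit, a larger share than of the 6 mitochondrial genes. In shoots at 6 h their median was -0.82, and cox2, a subunit of cytochrome c oxidase, was called lower (-1.32). In roots cox2 was called higher at 12 h (1.27) and 24 h (2.001), with signals of 49.6 and 43.0 at 24 h against 9.74 and 10.03 at 0.5 h. Only these root arrays of 24 h reached the series median of 41.7. cox2 thus passed the filter through the group called high, and that call is not independent of the filter. Its shoot arrays all lay between 6.51 and 27.0, so its shoot change rests on dim signals.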

How the data were processed

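The deposited intensity values are linear MAS5 signals of 1-colour Affymetrix ATH1 arrays, per the submitters' processing notes (version not given in the sources used here). No further normalization was applied. From these, log2(signal + 2.205), with the 10th percentile of all signals as pseudocount, was fitted with limma 3.58.1 in R 4.3.3 (lmFit and eBayes with a trend) with 12 group means over 24 arrays. Probe sets needed a signal of at least 41.7, the median of all signals, on 2 arrays, and 15199 of 22810 were tested, with 64 controls left out. P-values were adjusted by Benjamini-Hochberg within each comparison. Calls needed an adjusted p under 0.05 and a 2-fold difference. The number of arrays, 2 per group, limits the precision.

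Probe sets were named through the platform annotation, and mitochondrial genes by symbol. The named genes were a fixed core (psaA, psbA, psbD, rbcL, petB, atpB, ndhF, rps18, rpoA, rpoB, psaC, accD, clpP, matK and genes of the inverted repeat), the most changed gene of each class, the extremes between tissues, and all called genes where 5 or fewer were called in a class. Members, lists and cotranscribed units were chosen with earlier results of these data known. On data simulated for shoots at 6 h, 75 of 100 genes changed by 1.5 on the log2 scale and 99 of 100 changed by 3 were called, with 5 false calls among 15199. The changed genes were drawn at random from all probe sets tested, with independent noise, so these rates need not hold for the plastid genes. Alternatives covered the pseudocount, centring, quantile normalization, filters, the replicate block, the fold limit, the starting time and leaving out arrays. Figures were drawn with matplotlib 3.10.9.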

Additional observations from a re-analysis of the deposited data

Results flagged for a closer look

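The test of the difference between the root change and the shoot change since 0.5 h, in the limma fit, called 27 results, each the log2 change in roots minus that in shoots with an adjusted p under 0.05 and at least 2-fold. Of all probe sets, 9.66% were called lower at 3 h, and 11.4%, 8.67% and 9.00% higher at 6, 12 and 24 h. At 3, 6 and 24 h the share of plastid genes called was no higher than these. At 3 h these were psbZ (-1.51), ndhA (-1.28), ndhC (-1.11), psbI (-1.09), psbA (-1.07) and ndhI (-1.05). All of them but ndhC lost their call without 1 or more single arrays of 0.5 or 3 h. For all 6 the root change was below 0, from -1.58 for psbZ to -0.88 for psbI, while the shoot changes ran from -0.08 to 0.20. At 6 h they were petN (1.92), with a root change of 0.75 and a shoot change of -1.17, and rpoB (1.43). Both lost their call without root replicate 2 of 6 h, and each also without other single arrays.

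At 12 h the values were 2.09 for atpA, 1.84 for rpl16, 1.72 for cemA, 1.72 for psbC, 1.63 for rps4, 1.62 for petL, 1.55 for rpl33, 1.54 for petA, 1.45 for ccsA, 1.35 for clpP, 1.27 for psaI, 1.27 for psbZ, 1.20 for atpF and 1.02 for psbK. These all rest on the pair of disagreeing shoot arrays: without shoot replicate 1 of 12 h none of the 14 was called, and their values ran from 0.45 for atpF to 0.96 for rpl33. atpA and atpF also lost their call on leaving out an array of any other group. psbC, psbZ, rps4, psaI, petA, petL, rpl16, ccsA and psbK each lost theirs without 1 or more of the arrays of 0.5 h, and all of these but rps4 and rpl16 did so without root replicate 2 of 12 h. At 24 h the values were 1.54 for rpoB, 1.28 for rps18, 1.28 for rpl33, 1.13 for rps16 and 1.01 for psaA, with root changes above 0 and shoot changes below 0 for all 5. All 5 lost their call without 1 or more single arrays of 0.5 or 24 h.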

How the results depend on the processing

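Among 54 results for single genes, the alternatives kept direction and side of the threshold in 683 cases, lost the call in 102 and turned the direction in 0. The 683 include 54 cases without the fold limit, which could not lose a call. They also include 54 with probe sets averaged per gene, which left the signals of these genes unchanged. Leave-one-out fits entered only as the lowest and highest estimate of each result, so these totals do not count every call lost that way. The counts of genes lower in roots moved little, with leave-one-out ranges of 66 to 67 at 6 h, 59 to 68 at 12 h and 67 to 69 at 24 h. Of the counts over time, roots at 3 h (14) gave 8 with a pseudocount of 16, 9 with centred arrays, 35 without the fold limit and 7 to 18 leaving out 1 array. Roots at 6 h (11) gave 7 centred, 27 without the fold limit, 18 against 1 h and 4 to 16 leaving out 1 array. Roots at 12 h (0) gave 2 without the fold limit, 1 against 1 h and 0 to 1, and roots at 24 h (1) gave 0 with a pseudocount of 16, 8 without the fold limit, 6 against 1 h and 0 to 1.

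Shoots at 1 h (0) gave 1 without all 4 arrays of 12 h. Shoots at 3 h (1) gave 0 against 1 h, 3 without both shoot arrays or all 4 arrays of 12 h, and 0 to 3 leaving out 1 array. Shoots at 6 h (12) gave 19 centred, 19 without the fold limit, 1 against 1 h and 3 to 18. Shoots at 12 h (0) gave 2 with a pseudocount of 16, 8 centred, 2 with a filter of 12 arrays, 5 with the replicate block, 23 without the fold limit, 2 against 1 h and 0 to 42. Shoots at 24 h (0) gave 5 without the fold limit, 1 against 1 h and 0 to 1.

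The root change minus the shoot change gave at 3 h (6) 13 without the fold limit and 3 to 8 leaving out 1 array. At 6 h (2, both higher) it gave 4 centred and 6 with quantile normalization (3 higher, 3 lower). It gave 4 with the replicate block (3 higher, 1 lower) and 5 without the fold limit (2 higher, 3 lower). Without both shoot arrays or all 4 arrays of 12 h it gave 6 (5 higher, 1 lower). The range leaving out 1 array was 1 to 6. At an unadjusted p under 0.05, 4 plastid genes were higher and 8 lower at 6 h. That limit was met by 7551 of all 15199 probe sets, a larger share than of the plastid genes. At 12 h (14) the root change minus the shoot change gave 22 centred, 7 with quantile normalization and 9 without a filter. It gave 23 without the fold limit, 2 against 1 h and 0 to 49 leaving out 1 array. At 24 h (5) it gave 8 without the fold limit, 2 against 1 h, 8 without both shoot arrays or all 4 arrays of 12 h, and 1 to 8. Leaving out the 12 h arrays was chosen after seeing the data. Apart from the fewer arrays of leave-one-out fits and the lower threshold without a fold limit, the cause was not tested.

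Replicate numbers are shared by all groups, but deviations of same-numbered arrays correlated at -0.26 to 0.23 over 66 pairs of groups, with 5 over 0.1 and 5 under -0.1, so the numbers are not shown to pair the arrays. Dim signals limit the root levels of ndhJ, psbN, petD, ndhF and ndhH, below the series median on all 12 root arrays, of rps16 and ndhK, below it on 11, and of rpoB and atpI, below it on 10. Of these only rpoB and atpI would have passed the filter on root arrays alone.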

Other observations

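The 8 probe sets of plastid genes in the inverted repeat, which match both copies of a gene, were all called lower in roots than in shoots by limma over all times, against 18.4% of all probe sets. Their median was -1.96 on the log2 scale. The largest difference was that of rpl23 (-3.26 ± 0.09), a ribosomal protein gene, and the smallest that of ndhB (-1.32 ± 0.13), an NDH subunit gene. rpl2 differed by -1.83 ± 0.05 and ycf1, which encodes a protein of the import machinery of the inner envelope, by -1.99 ± 0.12. FAMA, a guard cell regulator, differed by -2.26 ± 0.14, with dim signals of 5.02 to 16.4 on root arrays. It passed the filter through shoots alone, so that call is not independent of the filter.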
